A study of Mus musculus with 6 samples.

Results

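Tuft cell genes were described here in the colon epithelial fraction of wild type and Lingo3 knockout mice. The set was a list of 36 genes given by name, all of which were found among the 46078 genes of the count table. The authors' deposited comparison table lists 29 of them, and the other 7 (Il25, Gfi1b, Sucnr1, Gng13, Ltc4s, Nrgn and Hmx2) were looked up by Ensembl identifier in the counts. The list was given by name and not by a cutoff on values of these libraries, but it was chosen with earlier results of these data known.

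RNA was sequenced from 3 wild type and 3 Lingo3-/- libraries, all from untreated mice aged 2 months. The product of Lingo3 is a membrane protein with leucine-rich repeats. Cells were washed off the colon with EDTA, and total RNA was depleted of ribosomal RNA. The label of wild type replicate 1 names EDTA and DTT, those of the other 5 libraries EDTA alone, and the shared protocol names both agents. The labels give neither the sex of the mice nor whether each library came from its own animal, so the p-values cover only the variation among these 6 samples, and it may be technical. The labels also do not say how the Lingo3 allele was made.

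Tuft cells are rare chemosensory cells of the intestinal epithelium that depend on the transcription factor Pou2f3. They use the signalling chain of taste cells, in which a G protein, phospholipase C, the inositol trisphosphate receptor and the cation channel Trpm5 act in turn. In the gut they release the cytokine Il25, which acts on type 2 innate lymphoid cells, and they make leukotrienes, prostaglandins and acetylcholine. Interleukin 13 from the lymphoid cells in turn drives epithelial progenitors towards tuft and goblet cells. Many of the genes are also known from leukocytes: 18 of the 36 were marked as such and the other 18 were not.

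The wild type libraries held 25010618, 28029583 and 25151356 counts over genes and the knockout libraries 17200931, 16762320 and 11868000. Mitochondrial transcripts took 45.3 to 48.4% of the counts in wild type and 34.7 to 36.3% in knockout, and nuclear protein-coding genes 45.4 to 46.7% and 58.4 to 59.2%. Levels are therefore given as scaled CPM, CPM of library sizes adjusted for composition with edgeR's TMM factors. A floor of 3 counts corresponded to 0.113 to 0.140 scaled CPM in wild type and 0.154 to 0.240 in knockout, and it covers counting error only. Xist had 10037 to 27622 counts and the Y-linked gene Ddx3y 1 to 4 counts in every library, the same pattern in both groups, which bears on the X-linked members Bmx and Il13ra1.

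Sequences at the starts of 5 members are shown because tuft cell identity rests on Pou2f3, a factor of the POU2 class, and factors of this class recognise the octamer motif ATGCAAAT. The motif was searched on both strands in the 250 bases before each gene start of RefSeq (GRCm38.p6), where 32 of the members had 40 windows. It lay in 3 of these, those of Kctd12, Hpgds and Sucnr1, against 526 of 32851 windows of all genes (1.60%). Trpm5 and Bmx, whose transcripts were higher in knockout, are printed beside Kctd12 as promoters without and with the motif. Capitals mark the octamer, every sequence reads 5′ to 3′ on the strand of its gene, and the first 3 lines give the whole window and the last 2 the 30 bases around the motif.
Trpm5 (chr7:143094643-143094892, minus strand): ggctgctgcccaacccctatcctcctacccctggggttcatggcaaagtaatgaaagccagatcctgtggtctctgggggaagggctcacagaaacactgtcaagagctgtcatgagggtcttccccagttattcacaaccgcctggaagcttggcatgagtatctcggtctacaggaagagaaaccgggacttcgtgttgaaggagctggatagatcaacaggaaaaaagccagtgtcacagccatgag
Bmx (chrX:164258194-164258443, minus strand): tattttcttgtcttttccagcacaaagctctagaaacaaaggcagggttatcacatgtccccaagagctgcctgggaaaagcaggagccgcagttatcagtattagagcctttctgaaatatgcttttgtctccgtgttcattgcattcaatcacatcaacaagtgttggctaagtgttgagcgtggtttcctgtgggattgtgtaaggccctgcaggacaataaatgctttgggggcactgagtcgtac
Kctd12 (chr14:102982638-102982887, minus strand): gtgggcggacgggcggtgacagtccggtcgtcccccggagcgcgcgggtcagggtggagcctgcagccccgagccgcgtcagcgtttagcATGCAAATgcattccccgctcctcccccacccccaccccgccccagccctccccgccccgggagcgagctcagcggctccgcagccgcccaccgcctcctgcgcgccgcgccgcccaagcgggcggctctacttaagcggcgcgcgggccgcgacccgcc
Hpgds (chr6:65144886-65144915, minus strand): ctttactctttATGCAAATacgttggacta
Sucnr1 (chr3:60081810-60081839, plus strand): ggctgcataatATGCAAATcagactgcact
The Hpgds motif lies 174 bases before the RefSeq start but within the first exon of the longer GENCODE transcript, so it is upstream only by the RefSeq start. In Kctd12 the motif lay 160 bases before the start, and this window had a GC content of 77.6%, against 52.8% for Trpm5 and 45.6% for Bmx. A match is a run of letters and not a measured binding site, and a window without a match says only that these letters are not in it.

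The tuft cell genes covered a wide range of levels. Per length of exon, Cd24a was the highest in wild type at 69.0 scaled CPM per kb, followed by Il13ra1 at 19.4, Itpr2 at 7.03 and Rgs13 at 6.83. Cd24a encodes a surface glycoprotein that other epithelial cells also carry, and Il13ra1 a subunit of the receptor for interleukin 13 that is widely expressed. Of the 36 genes, 2 lay above 10 scaled CPM per kb in wild type, 19 between 1 and 10, and 15 below 1. The kinase gene Dclk1, the usual marker of tuft cells, ranked at 17 of 36 with 1.46 scaled CPM per kb, the channel gene Trpm5 at 8 with 2.68, and Pou2f3 at 26 with 0.645. The defining markers Dclk1, Trpm5, Pou2f3, Avil and Gnat3 were thus detected in every library, whereas Il25 was near the floor. In bulk RNA, fewer cells of a type and less RNA per cell cannot be told apart.

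**Figure D1:**
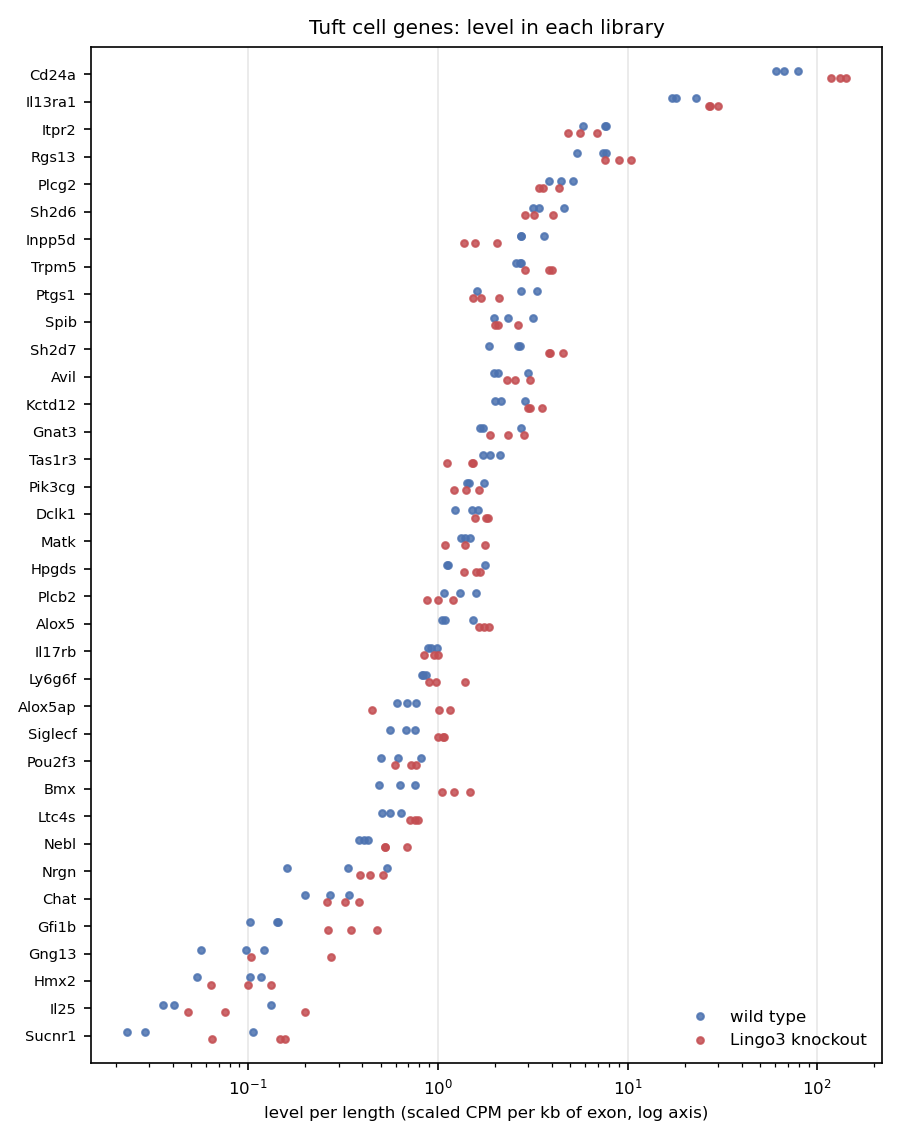
Level of the 36 tuft cell genes in each library, as scaled CPM per kb of exon on a log axis, with wild type in blue and Lingo3 knockout in red, ordered by the wild type mean. Cd24a lies highest at a wild type mean of 69.0 and Sucnr1 lowest at 0.0524; Gng13 has no point for knockout replicate 1, where it had 0 counts.

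Knockout was compared with wild type to ask which transcripts of the fraction differ without Lingo3. Of the 36 genes, 32 passed the filter on low counts. In edgeR's quasi-likelihood fit, adjusted by Benjamini-Hochberg over 16856 genes, 7 were higher in knockout at an adjusted p under 0.05: Cd24a, Sh2d7, Il13ra1, Bmx, Gfi1b, Trpm5 and Nebl. A single gene, Inpp5d, was lower, and 24 did not pass. The 7 higher genes were 21.9% of those tested, where 9.43% of all genes were higher, and the 1 lower gene was 3.12%, where 5.97% of all genes were lower and 15.4% were called in either direction. Gfi1b, Ltc4s and Nrgn passed the filter only through their knockout libraries, and among the 29 genes that reached it in all 6 libraries 6 were higher (20.7%) and 1 lower, with a median log2 fold change of 0.22. The median log2 fold change was 0.26 over the 32 genes and -0.03 over all genes tested, and 22 of the 32 estimates were positive. With library totals in place of composition factors these medians were 0.54 and 0.26, and with upper-quartile factors 0.19 and -0.09. Only Cd24a and Sh2d7 kept their call in each of the 16 alternative analyses. When 1 library was left out, 3 to 6 of the genes were higher, and the share of all genes that were higher ranged from 3.98 to 10.04%. Of the 7 genes above, 3 passed without wild type replicate 3, knockout replicate 2 or knockout replicate 3, and 4 without any 1 of the other 3 libraries. Without wild type replicate 1 the 6 higher genes were these 4 and Alox5 and Kctd12.

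The knockout libraries lay wholly above the wild type libraries in 12 of the 32 genes (37.5%), against 19.7% of all genes. These were the 7 higher genes and Alox5, Ly6g6f, Ltc4s, Kctd12 and Siglecf. Gfi1b and Ltc4s passed the filter only through their knockout libraries, so their place in this share was partly set by the filter. The knockout libraries lay wholly below in 2, Inpp5d and Tas1r3, against 16.0% of all genes. In the authors' deposited table, 7 of the 29 listed members had an adjusted p under 0.05, 6 higher and 1 lower, where 16.7% of its 15138 genes were called in either direction. Gfi1b is not listed there, and the other genes called above passed in the same direction.

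**Figure D2:**
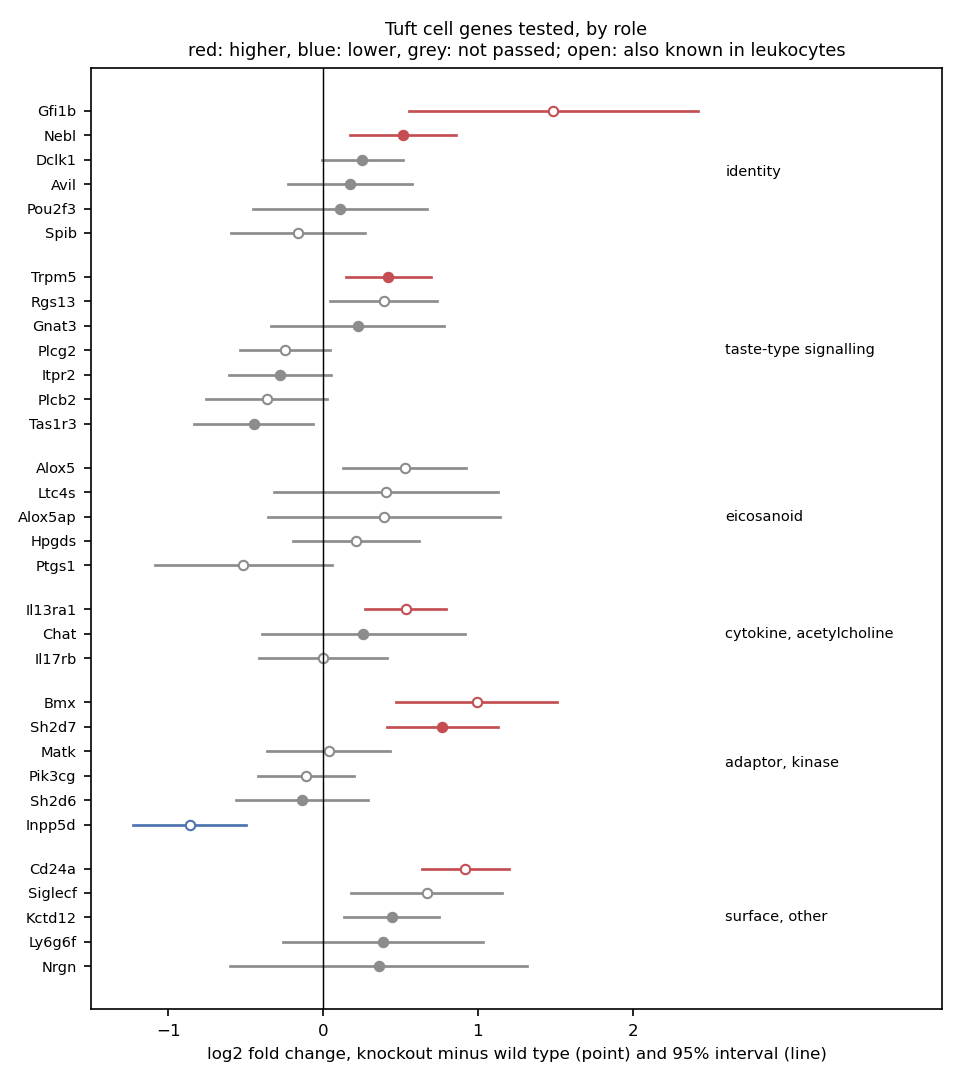
Log2 fold change, knockout minus wild type, with its 95% interval for the 32 tested tuft cell genes, grouped by role, where red marks higher, blue lower and grey genes that did not pass, and open points genes also known in leukocytes. The 7 red genes run from Trpm5 at 0.42 to Gfi1b at 1.49, and Inpp5d, in blue, lies at -0.86.

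Coordinates below are those of GRCm38, and the counts by role group stand beside 9.43% of all genes higher and 5.97% lower. Among the genes of tuft cell identity and structure, 2 of 6 tested were higher and 0 lower, with a median log2 fold change of 0.21. Those that rose were Gfi1b (chr2:28609450-28621982), a zinc-finger transcriptional repressor that marks tuft cells in the intestine and is also known from blood cells, and Nebl (chr2:17343909-17731464), which encodes an actin-binding protein. Gfi1b had 4, 7 and 6 counts in the wild type libraries and 17, 12 and 6 in knockout, or 0.187, 0.264 and 0.260 scaled CPM against 0.875, 0.636 and 0.480. Every knockout library lay above every wild type library on the scaled level, but the raw counts overlapped, with 7 in wild type replicate 2 and 6 in knockout replicate 3. The log2 fold change was 1.49 ± 0.43 (SE, n = 3 per group, edgeR adjusted p = 0.0370). Gfi1b passed the filter only through its knockout libraries, and leaving out any single library ended the call, at edgeR adjusted p between 0.0594 and 0.123. It passed in 5 of the 13 alternatives that gave it an adjusted p.

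Nebl had 6.50, 6.22 and 5.86 scaled CPM in wild type and 10.5, 8.01 and 8.0 in knockout. The groups did not overlap, and knockout replicate 1 stood highest. Nebl rose by 0.52 ± 0.16 on the log2 scale (SE, n = 3 per group, edgeR adjusted p = 0.0447), and without any 1 of the 6 libraries it no longer passed, at adjusted p between 0.0550 and 0.135. It passed in 5 of 16 alternatives.

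The other identity genes did not pass the test. Dclk1 had 23.1, 25.0 and 18.8 scaled CPM in wild type and 28.1, 27.6 and 23.9 in knockout, a log2 difference of 0.25 with a 95% interval from -0.01 to 0.51 (edgeR adjusted p = 0.175). Knockout replicate 3 fell within the wild type range, and the other 2 knockout libraries lay above it. Pou2f3, the factor on which tuft cells depend, had 1.54, 2.53 and 1.91 scaled CPM in wild type and 2.37, 2.23 and 1.84 in knockout. Its groups overlapped, and the log2 difference of 0.11 had an interval from -0.46 to 0.67 (edgeR adjusted p = 0.806). Avil, the gene of the actin-severing protein advillin, had 10.2, 7.09 and 6.68 scaled CPM in wild type and 7.83, 10.4 and 8.64 in knockout. The ranges of Avil overlapped, with a log2 difference of 0.17 and an interval from -0.23 to 0.58 (edgeR adjusted p = 0.557). Spib, an ETS-family transcription factor known from tuft and lymphoid cells, had the highest level per length of the group in wild type. It had 6.73, 9.12 and 5.64 scaled CPM in wild type and 5.72, 7.58 and 5.92 in knockout, which overlapped, at a log2 difference of -0.16 (edgeR adjusted p = 0.614). The homeobox gene Hmx2 had 7, 10 and 4 counts in wild type and 4, 8 and 4 in knockout, too few to be tested.

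In the taste-type signalling chain 1 of 7 genes tested was higher, 0 were lower, and the median log2 fold change was -0.25. The gene that rose was Trpm5, the calcium-activated channel at the end of the chain, whose gene spans chr7:143069153-143094642 (GRCm38, minus strand). It had 17.3, 17.6 and 16.5 scaled CPM in wild type and 24.7, 25.5 and 18.3 in knockout. The wild type libraries were close together, and knockout replicate 3 lay just above them while the other 2 knockout libraries stood well apart. The log2 fold change was 0.42 ± 0.13 (SE, n = 3 per group, edgeR adjusted p = 0.0427). Trpm5 passed without knockout replicate 3 (edgeR adjusted p = 0.0205). Without any 1 of the other 5 libraries it did not pass, at adjusted p between 0.0659 and 0.150. It passed in 6 of 16 alternatives. Its exons overlap Tssc4 on the opposite strand over 3.4% of their length. The strand setting of the counting is not given, so how reads there were counted is not known.

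Upstream of the channel no gene passed. Gnat3, the taste G protein alpha subunit gustducin, had 3.74, 2.26 and 2.34 scaled CPM in wild type and 3.86, 3.18 and 2.56 in knockout. These ranges overlapped, and the log2 difference was 0.22 with an interval from -0.34 to 0.78 (edgeR adjusted p = 0.584). Itpr2, an inositol trisphosphate receptor that releases stored calcium, was the most abundant of the chain per length in wild type. It had 85.9, 113 and 114 scaled CPM in wild type and 103, 72 and 82.6 in knockout, which overlapped, at a log2 difference of -0.28 (edgeR adjusted p = 0.226). The phospholipases Plcb2 and Plcg2 had log2 differences of -0.37 and -0.25, and the sweet and umami receptor subunit Tas1r3 one of -0.45, while the G protein regulator Rgs13 had 0.39. Tas1r3 had 6.08, 7.50 and 6.64 scaled CPM in wild type and 5.41, 5.36 and 3.92 in knockout. Its groups did not overlap, but the edgeR adjusted p was 0.107. Sucnr1, the succinate receptor, had 16 counts over all 6 libraries and Gng13, a G protein gamma subunit whose exons lie for 51.6% of their length under Chtf18 on the opposite strand, 10, so neither was tested, and no difference could be detected at this depth.

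None of the 5 genes of the eicosanoid pathway passed, in either direction, and 1 of them, Alox5, had an unadjusted p under 0.05. The median log2 fold change of the group was 0.39. Ptgs1, the cyclooxygenase that starts prostaglandin synthesis, had the highest level per length, with 12.9, 10.7 and 6.25 scaled CPM in wild type and 8.19, 6.58 and 5.92 in knockout. The groups overlapped through wild type replicate 3, and the log2 difference was -0.52 (edgeR adjusted p = 0.198). Without wild type replicate 3 Ptgs1 was lower (-0.74, adjusted p = 0.0253), where the fits without 1 library gave adjusted p up to 0.476. Alox5, the lipoxygenase of leukotriene synthesis, had 6.31, 4.49 and 4.29 scaled CPM in wild type and 7.62, 7.21 and 6.80 in knockout. All knockout libraries lay above all wild type libraries, at a log2 difference of 0.53 (edgeR adjusted p = 0.0700). Without wild type replicate 1 Alox5 passed (adjusted p = 0.0196), where the fits without 1 library gave adjusted p up to 0.184. The prostaglandin D synthase Hpgds and the leukotriene genes Alox5ap and Ltc4s had log2 differences of 0.21, 0.39 and 0.40 with edgeR adjusted p of 0.461, 0.464 and 0.433. Ltc4s shares 26.4% of its exon length with an antisense gene.

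Among the cytokine and acetylcholine genes 1 of 3 tested was higher. This was Il13ra1 (chrX:36112110-36171259), the receptor subunit through which interleukin 13 acts, at 85.5, 63.3 and 67.0 scaled CPM in wild type and 100.2, 100.3 and 112 in knockout. The groups did not overlap, and wild type replicate 1 was nearest to the knockout libraries. Il13ra1 rose by 0.53 ± 0.12 on the log2 scale (SE, n = 3 per group, edgeR adjusted p = 0.0129), and it kept the call in 15 of 16 alternatives, losing it without knockout replicate 3 at an adjusted p of 0.0648, the highest of the 16. Il25 had 3, 1 and 1 counts in the wild type libraries and 1, 4 and 1 in knockout. These 11 counts lay at the floor in both groups, and a difference was not detectable. Il17rb, a subunit of the receptor for Il25, had 3.46 scaled CPM in both groups, a log2 difference of -0.00 with an interval from -0.42 to 0.41 (edgeR adjusted p = 0.996). Chat, the enzyme that makes acetylcholine, had 1.26, 0.943 and 1.60 scaled CPM in wild type and 1.80, 1.22 and 1.52 in knockout. Its ranges overlapped, at a log2 difference of 0.26 with an interval from -0.40 to 0.92 (edgeR adjusted p = 0.588).

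The adaptors and kinases held both directions, with 2 of 6 tested higher, 1 lower and a median log2 fold change of -0.04. Sh2d7 (chr9:54538984-54545020), an SH2-domain protein known as a tuft cell marker, had 7.48, 7.28 and 5.16 scaled CPM in wild type and 10.6, 12.6 and 10.8 in knockout. The groups were well apart, and the log2 fold change of 0.77 ± 0.16 (SE, n = 3 per group, edgeR adjusted p = 0.0101) passed in every alternative, at adjusted p up to 0.0398. Its exons overlap Cib2 on the opposite strand over 8.2% of their length. Bmx (chrX:164192842-164258193), a TEC-family tyrosine kinase, had 2.34, 1.96 and 1.52 scaled CPM in wild type and 3.24, 4.56 and 3.76 in knockout. Bmx rose by 0.99 ± 0.24 on the log2 scale (SE, n = 3 per group, edgeR adjusted p = 0.0174) with groups that did not overlap. Without wild type replicate 3, knockout replicate 2 or knockout replicate 3 it did not pass, at edgeR adjusted p of 0.0562, 0.0732 and 0.0568, where the fits without 1 library began at 0.0162. It passed in 12 of 16 alternatives.

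Inpp5d (chr1:87620312-87720507), the inositol phosphatase SHIP1 of leukocytes and tuft cells, was the 1 member that fell. It had 20.9, 27.6 and 20.7 scaled CPM in wild type and 15.6, 10.4 and 12 in knockout, so that every knockout library was below every wild type library. The log2 fold change was -0.86 ± 0.16 (SE, n = 3 per group, edgeR adjusted p = 0.00785). Without knockout replicate 3 it did not pass (adjusted p = 0.0505), and the fits without 1 library began at 0.00301. T cell markers fell in the same libraries: 13 of 15 tested were lower (86.7%, against 5.97% of all genes) and 0 higher. The summed level of these markers was 218 to 249 scaled CPM in wild type and 73.6 to 131 in knockout, with none of the 15 at 0 counts. Their part in the fall of Inpp5d was not tested. Sh2d6, an SH2-domain adaptor, was the most abundant of the group per length in wild type. It had 5.38, 5.77 and 7.85 scaled CPM in wild type and 6.85, 5.41 and 4.88 in knockout. The ranges of Sh2d6 overlapped, at a log2 difference of -0.14 with an interval from -0.57 to 0.29 (edgeR adjusted p = 0.663). The kinase genes Matk and Pik3cg had log2 differences of 0.04 and -0.11.

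Of the surface and other genes 1 of 5 tested was higher and 0 lower, with a median log2 fold change of 0.44. Cd24a (chr10:43578284-43584265) had 173, 205 and 156 scaled CPM in wild type and 303, 340.3 and 366 in knockout. Every knockout library was well above the highest wild type library. The mean was 178 ± 25.1 in wild type and 336 ± 31.3 in knockout (SD, n = 3). The rise of 0.92 ± 0.13 on the log2 scale (SE, edgeR adjusted p = 0.00191) passed in every alternative, at adjusted p up to 0.0164. Kctd12, an auxiliary subunit of GABA-B receptors, had 17.4, 13 and 12.2 scaled CPM in wild type and 18.5, 18.1 and 21.4 in knockout. The groups did not overlap, and the log2 difference of 0.44 just missed the threshold (edgeR adjusted p = 0.0528). Other annotated genes, a noncoding gene on the opposite strand and a microRNA gene on its own strand, each with 0 counts, cover 64.2% of its exon length. Without wild type replicate 1 Kctd12 passed (edgeR adjusted p = 0.00785), where the fits without 1 library gave adjusted p up to 0.181. The label of that replicate names EDTA and DTT, and the part of the wash in this value was not tested. Siglecf, a sialic acid-binding lectin of eosinophils and tuft cells, had 2.10, 1.89 and 1.56 scaled CPM in wild type and 2.99, 3.02 and 2.80 in knockout. Every knockout library was above every wild type library, at a log2 difference of 0.67 (edgeR adjusted p = 0.0637). Eosinophil and neutrophil markers summed to 3.79 to 4.29 scaled CPM in wild type and 0.583 to 2.47 in knockout, but 8 of the 10 were too low to be tested and 1 had 0 counts. Their part in the level of Siglecf was not tested. Ly6g6f and Nrgn had log2 differences of 0.39 and 0.36 (edgeR adjusted p = 0.402 and 0.611).

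**Figure D3:**
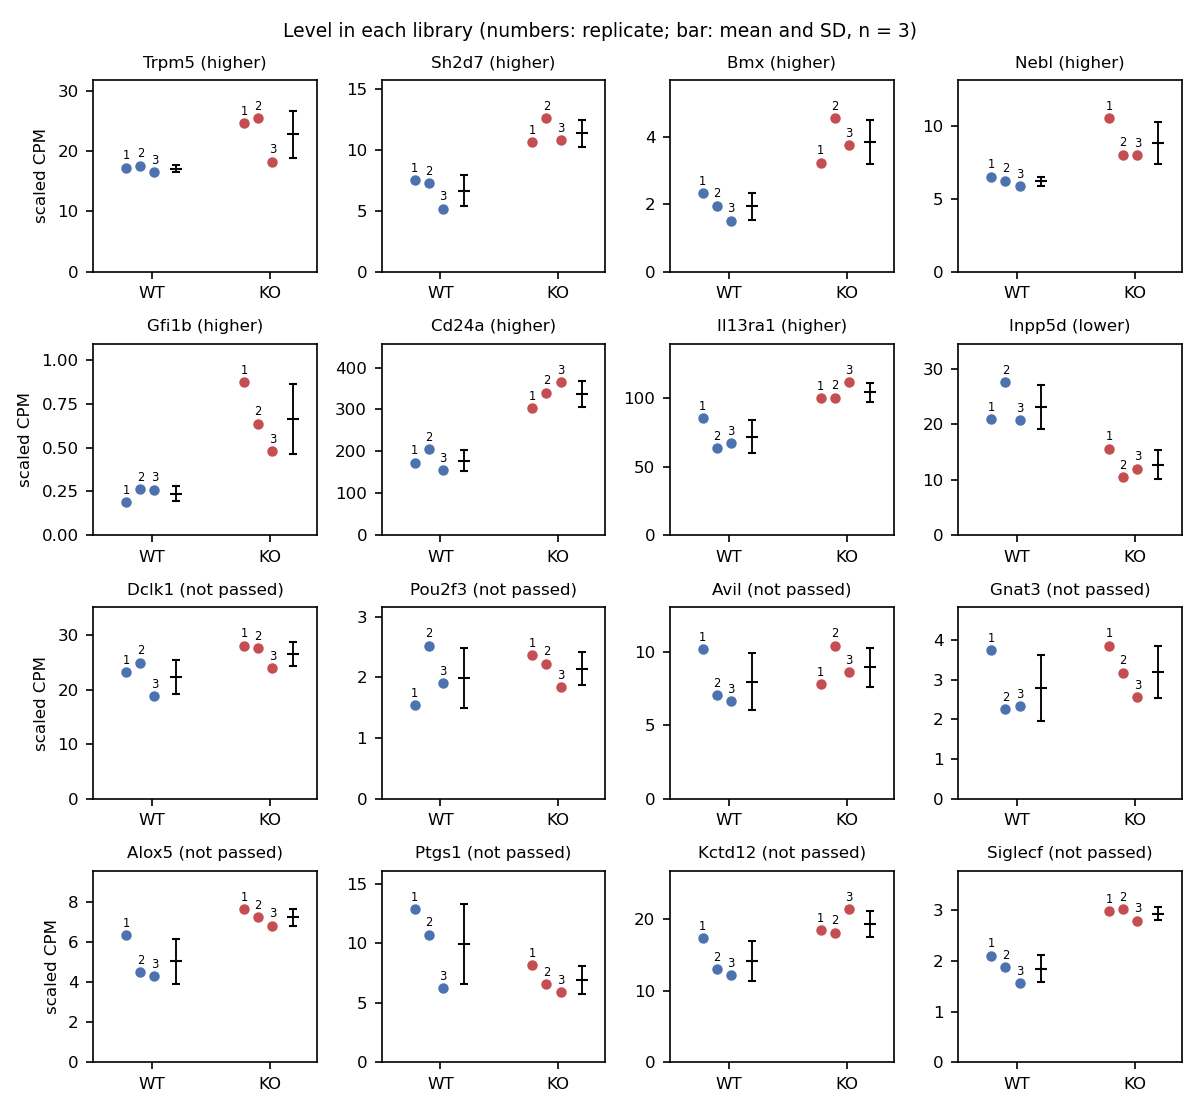
Scaled CPM of 16 tuft cell genes in each library, numbered by replicate, with the group mean and SD (n = 3) to the right of the points and each axis starting at 0. Cd24a, Sh2d7 and Inpp5d show groups that are well apart, while Pou2f3, Avil and Gnat3 overlap.

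Across the 32 tested genes, knockout replicate 3 was the lowest of the knockout libraries in 16 and the highest in 4, where it was the lowest in 30.8% and the highest in 36.1% of all genes. Knockout replicate 1 was the highest of its group in 17 genes, against 33.6% of all genes. Trpm5, Dclk1, Pou2f3 and Gnat3 were among the genes lowest in knockout replicate 3, whereas Cd24a, Il13ra1, Kctd12 and Rgs13 were highest there. Knockout replicate 3 was also the shallowest library. Among the wild type libraries, replicate 3 was the lowest in 16 of the 32 genes, against 34.1% of all genes, and these included Trpm5, Sh2d7, Cd24a, Bmx and Nebl. Wild type replicate 1 was the highest in 14, against 36.2% of all genes.

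The members not marked as known from leukocytes were compared with those that were. Of the 14 tested in the first set 3 were higher (21.4%) and 0 lower, with a median log2 fold change of 0.26. Of the 18 in the second 4 were higher (22.2%) and 1 lower (5.56%), with a median of 0.30. Among all genes 9.43% were higher and 5.97% lower. The summed level of the first set was 188, 210 and 201 scaled CPM in wild type and 225, 195 and 191 in knockout. These ranges overlapped, and the ratio of the means was 1.02. Itpr2 made up much of that sum, and without it the values were 102, 97.2 and 87.7 against 123, 123 and 108, a ratio of 1.23 with groups that did not overlap. The second set summed to 381, 403 and 331 in wild type and 524, 551 and 585 in knockout, a ratio of 1.49. Without Cd24a and Il13ra1 the sums were 123, 134 and 108 against 120.0, 110.2 and 107, a ratio of 0.925 with overlapping groups.

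**Figure D4:**
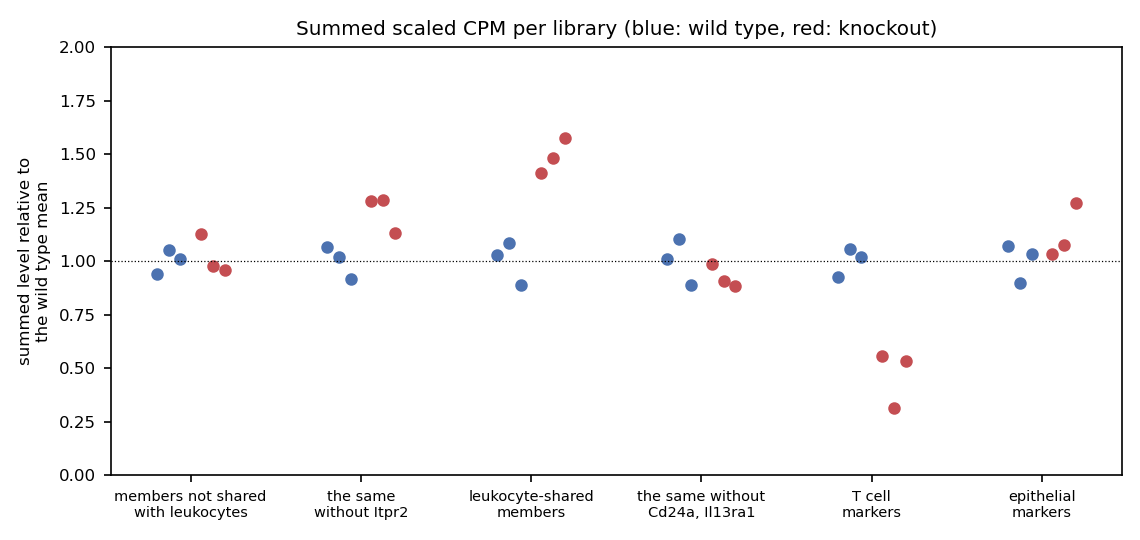
Summed scaled CPM per library, relative to the wild type mean, for members marked or not marked as known from leukocytes. Sums are with and without the most abundant genes, beside T cell and epithelial markers. The ratio of the means is 1.02 for the members not marked as known from leukocytes and 1.23 without Itpr2. It is 1.49 for the marked members and 0.925 without Cd24a and Il13ra1. Unmarked members may also be expressed in leukocytes, which was not tested.

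Markers of other cells the wash could hold moved in several ways, where 9.43% of all genes were higher and 5.97% lower. Enteroendocrine markers had 0 of 12 tested higher and 1 lower and summed to 415 to 551 scaled CPM in wild type and 241 to 462 in knockout, and pan-epithelial markers had 0 of 10 in either direction. B cell and plasma cell markers had 5 of 11 lower, 0 higher and a median log2 fold change of -1.57. The knockout libraries lay wholly below wild type in 8 of these 11 (72.7%, against 16.0% of all genes) and wholly above in 1. The sum of these markers was 120 to 151 scaled CPM in wild type and 120 to 131 in knockout. Macrophage and dendritic cell markers had 1 of 11 in each direction, 7 positive estimates and a median log2 fold change of 0.71. Their sum was 91.2 to 110 scaled CPM in wild type and 68.8 to 245 in knockout. Mast cell markers had 1 of 6 tested higher, the receptor gene Kit (0.53), and 1 lower, the histidine decarboxylase gene Hdc (-1.62), with a median of 0.27 and 1 of the 12 at 0 counts. They summed to 58.2 to 64.1 scaled CPM in wild type and 83.3 to 89.0 in knockout, and without Kit to 7.09 to 10.99 and 8.03 to 12.5. Enteric neuron and glia markers had 1 of 6 lower, with a median of -0.19. Fibroblast, muscle and endothelial markers had 3 of 11 lower, with a median of -1.15. The part of these cells in the members' values was not tested.

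A list of further genes known from tuft cells was taken beside the members, with 35 of its 37 names matched. Of 33 tested, 9 were higher (27.3%, against 9.43% of all genes) and 2 lower (6.06%, against 5.97%). The median log2 fold change was 0.03. The knockout libraries lay wholly above wild type in 10 (30.3%, against 19.7% of all genes) and wholly below in 9 (27.3%, against 16.0%). Those with the smallest p among the 9 higher ones were Hepacam2 (0.65), Bpgm (0.47), Sox9 (0.77) and Mfge8 (0.65), of which Sox9 is also a transcription factor of crypt progenitors. Krt18, Atp2a3 and Ildr1 were also among the 9. Per length of exon, Krt18, Atp2a3, Ildr1 and Hepacam2 had 121, 85.6, 22.5 and 14.2 scaled CPM per kb in wild type. The others of the 9 lay below 10, and the member Trpm5 had 2.68. How much of these levels came from tuft cells was not tested. The 2 that fell were Rac2 (-1.08), a GTPase of blood cells, and Limd2 (-0.99). In the type 2 immune circuit that tuft cells feed, 0 of 12 tested genes were higher and the median was -0.48. The 4 lower ones (33.3%, against 5.97% of all genes) were Il2rg (-1.56), Il4ra (-0.40), Gata3 (-1.40) and Il7r (-0.88). T cells also express Il2rg, Gata3 and Il7r, and the T cell markers had 13 of 15 lower with a median of -1.14. Their part in these values was not tested. Il4ra pairs with Il13ra1 in the receptor for interleukin 13, and it had 53.3 scaled CPM in wild type and 40.5 in knockout where Il13ra1 rose. The cytokine genes Il4, Il5, Il13 and Il9 had 22, 3, 4 and 0 counts over the 6 libraries. Retnlb, a goblet cell product that responds to interleukin 13, had a mean of 83.1 scaled CPM in wild type and 304 in knockout, and its log2 difference of 1.87 ± 0.64 (SE, n = 3 per group) did not pass (edgeR adjusted p = 0.130).

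Other eicosanoid genes went both ways, with 3 of 19 tested higher (15.8%, against 9.43% of all genes) and 4 lower (21.1%, against 5.97%). Their median was -0.01. The phospholipase Pla2g4a (0.61), which frees arachidonic acid, Ptgr1 (0.63) and Ptges3 (0.51) rose. Ptgs2, the inducible cyclooxygenase, fell by 1.27, the thromboxane synthase Tbxas1 by 0.65, Cbr1 by 0.43 and Ggt5 by 1.21.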

How the data were processed

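Colon epithelial RNA was sequenced in 3 wild type and 3 Lingo3 knockout libraries. Raw HTSeq counts per Ensembl gene, not normalised, were deposited by the authors. Trimmomatic 0.39, STAR, HTSeq and DESeq2, on GRCm38, are named in the submitters' processing notes, and no source used here gives the strand setting or the annotation release. The second deposited table holds the authors' DESeq2 comparison per the file headers: normalized signal per library (the counts divided by 1 factor per library), log2 fold changes, a test score, and unadjusted and adjusted p-values. It was used only for the counts of calls credited to it.

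Summary lines of the count table, 53.6 to 60.1% of reads, were left out. Genes were kept by filterByExpr (minimum count 10, minimum total 15), scaled with TMM factors and tested 2-sided with edgeR's robust quasi-likelihood test on genotype alone (R 4.3.3, edgeR 4.0.16, limma 3.58.1), with Benjamini-Hochberg adjustment over 16856 genes at a threshold of 0.05. Differences are knockout minus wild type, and levels per length used union exons of GENCODE M21, which had an entry for 45229 of 46078 identifiers. The method was also run on simulated counts without a composition difference between the groups. That run therefore does not cover the difference in mitochondrial share seen here. Alternatives were RLE or upper-quartile factors, library totals, DESeq2 1.42.0, limma-voom, a minimum mean CPM of 1 or no filter, a block for replicate number, nuclear protein-coding genes only and each library left out. Sums over members are given without a test. Thinning to the smallest total and sums without the most abundant members were added after the data were seen.

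The members, role groups and lists were chosen with earlier results of these data known. Values per library were given for members that passed, for Dclk1, Trpm5, Pou2f3, Avil, Gfi1b, Il25, Chat, Sh2d6 and Gnat3, and for the member highest per length in wild type in each role group. From other lists at most 4 genes in each direction, those with the smallest p, were named. Kctd12, Siglecf, Alox5 and Tas1r3 were added after their values were seen, as were Retnlb and the type 2 cytokines. The mast cell sum without Kit was added later, as were Krt18, Atp2a3 and Ildr1, named for their levels per length.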

Additional observations from a re-analysis of the deposited data

How the results depend on the processing

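Of 502 results for single members under the alternatives, 436 kept their direction and side of the threshold, 34 lost a call and 13 gained one. The other 19 turned sign, in 7 members that were never called, and no called member turned.

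In the reported fit 7 of 32 members were higher, against 9.43% of all genes. Library totals without composition factors gave 13 of 32, against 32.13% of all genes. A mean CPM of at least 1 gave 4 of 29, against 10.03%. Nuclear protein-coding genes only gave 4 of 31, against 10.35%, and counts thinned to the smallest total gave 3 of 29, against 7.625%. Leaving out 1 library gave 3 to 6 of 32, against 3.98 to 10.04%. Against 1 lower, no filter gave 2 and leaving out 1 library gave 0 to 2. Library totals shifted the median of all genes by 0.28, with 5415 genes higher and 420 lower, and upper-quartile factors gave 1137 and 1365, against 1589 and 1007. With no filter 1675 genes were lower. The cause of these differences was not tested.

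The ratio of the summed level of members not marked as known from leukocytes (1.02) was 0.974 with upper-quartile factors and 1.24 with library totals. It was 0.997 with nuclear protein-coding genes only, 1.23 without Itpr2 and 0.971 to 1.06 without 1 library. The ratio of the marked members (1.49) was 1.81 with library totals and 0.925 without Cd24a and Il13ra1.

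Same-numbered libraries correlated at -0.01, -0.12 and -0.10 in their deviations from the group means, and differently numbered ones at -0.12 to 0.22. With 3 libraries per group these values cannot tell whether samples were paired. With the replicate number as a block, 4 of 32 members were higher, against 7.08% of all genes, and 1 was lower. In that fit 1193 genes were higher and 868 lower.

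Depth limits Il25, Sucnr1, Gng13, Hmx2 and Gfi1b, which had few counts.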
